A study of Mus musculus with 62 samples.

Results

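The nuclear genes of the respiratory chain and of ATP synthase were described here in brown adipose tissue of tumour-bearing and mock-injected mice. Members were all gene symbols that begin with Nduf, Uqcr, Cox4 to Cox8 or Atp5, together with Sdha, Sdhb, Sdhc and Sdhd, after 4 pseudogene rows had been left out. The rule used names only and gave 92 of 47643 symbols: 36 genes of complex I, 4 of complex II, 8 of complex III, 20 of complex IV, 15 of complex V and 9 that encode complex I assembly factors (Ndufaf genes) or the ATP synthase coupling factor B family (Atp5s and Atp5sl). Ndufa4 and Ndufa4l2 were counted with complex IV, where the NDUFA4 protein is found. Of these, 90 were tested, and the members below the filter on low values, Cox7b2 and Cox8c, reached at most 0.0777 and 0 TPM in any library.

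The respiratory chain passes electrons from NADH through complex I, or from succinate through complex II, to complex III, cytochrome c and complex IV, and complexes I, III and IV pump protons out of the mitochondrial matrix. Complex V, the ATP synthase, uses the returning protons to make ATP. In brown fat the uncoupling protein UCP1 lets protons return without ATP being made, so that respiration yields heat, and mouse brown fat is known for a large respiratory chain beside little ATP synthase activity. Most subunits are encoded in the nucleus, and a small core set of complexes I, III, IV and V is encoded by mitochondrial DNA and written with the prefix mt-.

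Libraries were made from brown adipose tissue of female mice aged 2 months injected with melanoma cells described as cachectic (CAC) or as non-cachectic (NCAC), or given a mock injection (Con), and tissue was taken 2, 4, 6 and 8 weeks later. Cachexia is loss of body weight, including adipose and muscle mass, in the course of a disease such as cancer. The 62 libraries were labelled as biological replicates, with 5 in each of the 12 groups except CAC at 8 weeks, which had 7. The sample labels name the strain C57BL6/J, whereas the text of the series names NCI Ath/nude mice, and how many donor cell lines or clones stand behind CAC and NCAC was not given in the sources used here. All values are TPM, a transcript abundance unit that scales for transcript length and for the total of a library and keeps no read number, so the depth per library is unknown. Tissue was checked through 12 markers listed for brown adipocytes, such as Ucp1 and Cidea, none of which was at 0 in any library. The list also holds the general adipocyte genes Pparg, Adipoq, Plin1 and Fabp4, so its sum is not specific to brown adipocytes.

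Transcripts of the mt- genes filled on average 50.8% of the TPM total in CAC, 59.8% in NCAC and 62.8% in Con at 8 weeks, so that the room left to nuclear genes differed between the groups. Every comparison is therefore given on TPM and on a nuclear scale, for which the 37 mt- rows were removed and the rest rescaled to the same total. Between the scales, the median log2 difference of all genes tested moved by -0.33 for CAC minus Con at 8 weeks, by -0.24 for CAC minus NCAC at 8 weeks and by -0.26 for CAC minus Con at 6 weeks. In the other comparisons it moved by -0.29 to 0.15. Differences are on log2(TPM + 1) and come from 1 limma model over all 62 libraries, with p-values adjusted by Benjamini-Hochberg over all genes tested, and a gene is called at an adjusted p under 0.05. Shares of all genes called come from fits of all 62 libraries. Fits that leave out a library or the other groups have no such share here, so their counts cannot be read against one. At 4 weeks, Con replicates 3 and 4 stood apart, with mt- shares of 39.6% and 39.7%, against 57.1% to 58.7% in the other 3 Con libraries. In whole tissue, fewer cells of a type and less RNA per cell cannot be told apart.

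The summed level of the 92 genes on the nuclear scale was lowest in CAC at 8 weeks. There the members held 8.5% ± 0.833 of the nuclear total in CAC (SD, n = 7), 9.99% ± 0.549 in NCAC and 10.1% ± 0.437 in Con (SD, n = 5 each). The CAC libraries had 8.21%, 8.15%, 9.93%, 9.21%, 7.51%, 7.85% and 8.64%, the NCAC libraries 10.6%, 10.1%, 9.12%, 10.1% and 9.97%, and the Con libraries 10.2%, 10.5%, 9.76%, 9.60% and 10.6%. CAC replicate 3 lay inside the Con range and the other 6 CAC libraries lay below all Con libraries, while CAC replicates 3 and 4 overlapped with NCAC.

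The group means lay closer together at the earlier weeks. As nuclear-scale shares, the members held 9.63% ± 0.508, 9.59% ± 1.02 and 9.5% ± 0.326 in CAC at 2, 4 and 6 weeks, 10.1% ± 0.662, 10.1% ± 0.468 and 10.1% ± 0.979 in NCAC, and 10.6% ± 0.189, 10.7% ± 0.684 and 10.2% ± 0.316 in Con (SD, n = 5 each). On TPM the order at 8 weeks was the opposite one, with 4.16% ± 0.281 in CAC, 4.01% ± 0.0505 in NCAC and 3.77% ± 0.272 in Con. At 6 weeks the TPM sums were 4.53% ± 0.119 in CAC, 4.4% ± 0.922 in NCAC and 3.96% ± 0.318 in Con, and no CAC library overlapped with Con. The order of CAC and Con on TPM was the other way round before, with 4.21% ± 0.138 in CAC, 4.2% ± 0.168 in NCAC and 4.41% ± 0.144 in Con at 2 weeks, and 4.22% ± 0.342 in CAC, 4.3% ± 0.22 in NCAC and 5.26% ± 1.11 in Con at 4 weeks.

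**Figure D1:**
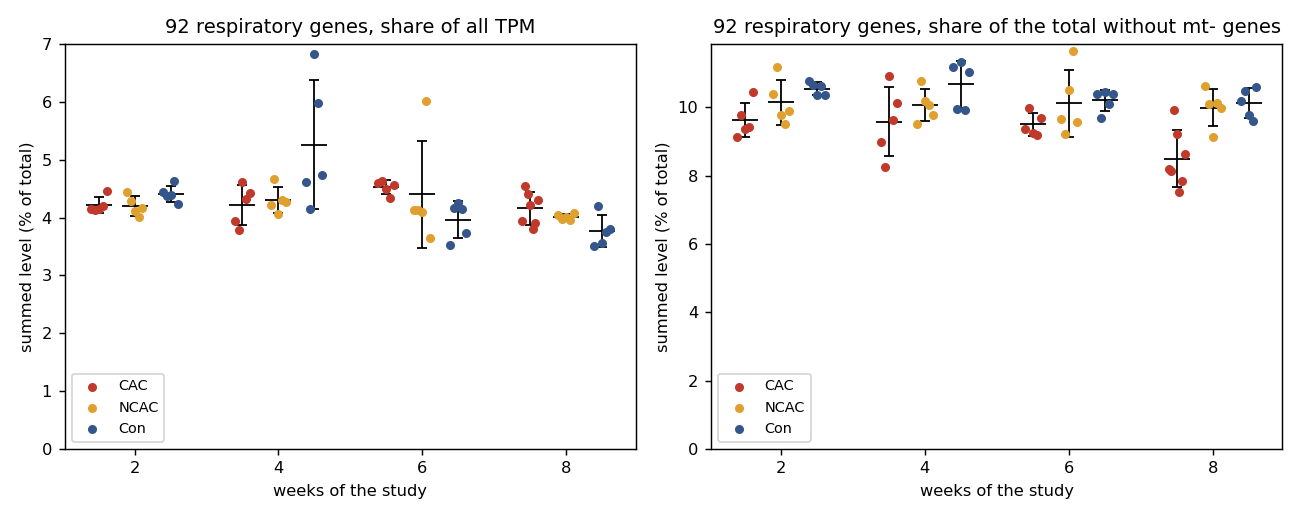
Summed level of the 92 members in each library as a percent of all TPM (left) and of the total without mt- genes (right), by weeks after injection, with CAC, NCAC and Con from left to right at each week; points are libraries and bars are the mean and SD. On the nuclear scale CAC at 8 weeks averaged 8.50%, against 9.99% in NCAC and 10.1% in Con, whereas on TPM it averaged 4.16%, against 4.01% and 3.77%.

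The split of the sum between the complexes hardly moved. Complex I held 27.4% ± 0.586 of the members' sum in CAC at 8 weeks, 27.3% ± 0.311 in NCAC and 27.2% ± 0.182 in Con. The share of complex II was 6.44% ± 0.708 in CAC, 6.01% ± 0.203 in NCAC and 6.19% ± 0.0552 in Con, and that of complex III was 13.6% ± 0.259, 13.8% ± 0.345 and 13.6% ± 0.0899 in the same groups. Complex IV, which took the greatest share, held 30.4% ± 1.95 in CAC, 31.4% ± 0.784 in NCAC and 31.4% ± 0.318 in Con, and complex V 21.7% ± 0.666, 21% ± 0.442 and 21.1% ± 0.227 (SD, n = 7, 5 and 5). For each of the 5 complexes the CAC and Con means differed by less than 1 SD of the CAC libraries. The Con libraries spread less, and for complexes II, IV and V the same means differed by more than 1 SD of the Con libraries.

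Levels spanned a wide range. Averaged over all libraries, 71 of the 92 members were at 100 TPM or more. The most abundant were Cox8b, a complex IV subunit of heart, muscle and brown fat, at 2453 TPM, and Atp5b and Atp5a1, the catalytic beta subunit and the alpha subunit of ATP synthase, at 1991 and 1765 TPM. The lowest of those tested were Cox4i2 at 5.98, Atp5g1 at 6.27 and Cox6b2 at 7.06 TPM, each a gene for a subunit that a more abundant member also encodes.

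Start regions are shown for Sdha, whose difference at 8 weeks stood apart from those of the other subunits of its complex, for Cox6a1, a ubiquitous complex IV form, and for Cox8a and Cox8b, the ubiquitous and tissue-restricted forms of 1 subunit. RefSeq windows on GRCm38.p6, 250 bases before to 50 after the annotated start, were found for 73 of the 92 members (78 windows). The letters GCGCANGCG, part of the sequence bound by the nuclear respiratory factor NRF1, stood on either strand in 29.5% of the members' windows, against 6.25% of all 32851 windows of this length. CCGGAAG, the ETS core read by GABP (NRF2), stood in 21.8% of them, against 8.86%. The shares for ATGGCGG (YY1) were 15.4% and 4.05%, for AAGGTCA (estrogen-related receptors) 10.3% and 4.72%, and for TATAAA 10.3% and 13.6%, members first. Capitals mark matches to any of these letters or their reverse complement, and a match is a description of the sequence and not an observed binding site. Overlapping matches were each counted.
Sdha, chr13:74350191-74350490, minus strand: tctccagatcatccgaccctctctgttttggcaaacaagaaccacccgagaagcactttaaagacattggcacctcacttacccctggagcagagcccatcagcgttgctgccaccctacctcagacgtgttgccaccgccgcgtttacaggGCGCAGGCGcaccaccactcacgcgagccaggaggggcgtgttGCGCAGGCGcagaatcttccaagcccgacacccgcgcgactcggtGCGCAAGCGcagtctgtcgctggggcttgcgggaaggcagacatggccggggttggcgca
Cox6a1, chr5:115348909-115349208, minus strand: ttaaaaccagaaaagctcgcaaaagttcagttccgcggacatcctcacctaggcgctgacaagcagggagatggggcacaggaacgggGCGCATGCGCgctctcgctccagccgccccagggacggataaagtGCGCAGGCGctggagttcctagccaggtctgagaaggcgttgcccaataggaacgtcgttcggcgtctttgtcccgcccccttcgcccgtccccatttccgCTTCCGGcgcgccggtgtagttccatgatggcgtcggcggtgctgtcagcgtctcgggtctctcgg
Cox8a, chr19:7217567-7217866, minus strand: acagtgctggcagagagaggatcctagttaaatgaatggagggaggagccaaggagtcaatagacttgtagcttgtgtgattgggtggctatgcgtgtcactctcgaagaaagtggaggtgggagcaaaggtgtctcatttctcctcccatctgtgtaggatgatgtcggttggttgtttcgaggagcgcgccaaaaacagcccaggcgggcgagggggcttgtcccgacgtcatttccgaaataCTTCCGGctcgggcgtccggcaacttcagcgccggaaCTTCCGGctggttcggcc
Cox8b, chr7:140900397-140900696, minus strand: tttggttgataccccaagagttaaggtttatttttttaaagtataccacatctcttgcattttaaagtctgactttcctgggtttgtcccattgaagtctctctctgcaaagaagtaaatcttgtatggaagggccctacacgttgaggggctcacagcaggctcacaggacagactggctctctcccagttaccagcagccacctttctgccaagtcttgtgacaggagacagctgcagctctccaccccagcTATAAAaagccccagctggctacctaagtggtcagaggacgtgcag
The Sdha window holds 3 matches to the NRF1 letters. That of Cox6a1, the ubiquitous form of complex IV subunit 6a, holds 3 of them, of which a pair overlap on opposite strands, and 1 ETS match, and that of Cox8a, the ubiquitous subunit 8, holds 2 ETS matches. The window of Cox8b, the tissue-restricted subunit 8, holds TATAAA just after the annotated start and none of the other letters searched.

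For CAC against Con at 8 weeks the direction of the calls depended on the scale. On TPM, 22 of 90 members rose and none fell (24.4%), against 52.1% of all genes tested called higher and 1.97% called lower, and the members' median difference was 0.12, against 0.28 over all genes. By contrast, 70 of 90 members fell and none rose on the nuclear scale (77.8%), against 10.4% of all genes called higher and 16.9% lower, with a median of -0.28 for the members and -0.05 for all genes. Median-of-ratios rescaling, which sets the scale from the middle of all genes, gave 43 lower and none higher, against 12.8% of all genes called lower. Relative to the median of all genes, the members' median was -0.16 on TPM, -0.23 on the nuclear scale and -0.22 after median-of-ratios rescaling, with 79, 88 and 88 of 90 members below it. No member was called in 1 direction on both TPM and the nuclear scale. A fit of CAC and Con at 8 weeks alone called 38 members lower on the nuclear scale, and the fits without any 1 library called between 62 and 73. The shares of all genes above do not apply to these fits, for which no share is given. The TPM count was 14 without Con replicate 3. As to separation, 15 members lay below Con without overlap on the nuclear scale (5.65% of all genes did so), among them Ndufs6, Ndufb2, Sdhc, Uqcrfs1, Cox5b, Cox8b, Atp5j and Atp5a1. On TPM 4 members lay above Con without overlap (14.6% of all genes).

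**Figure D2:**
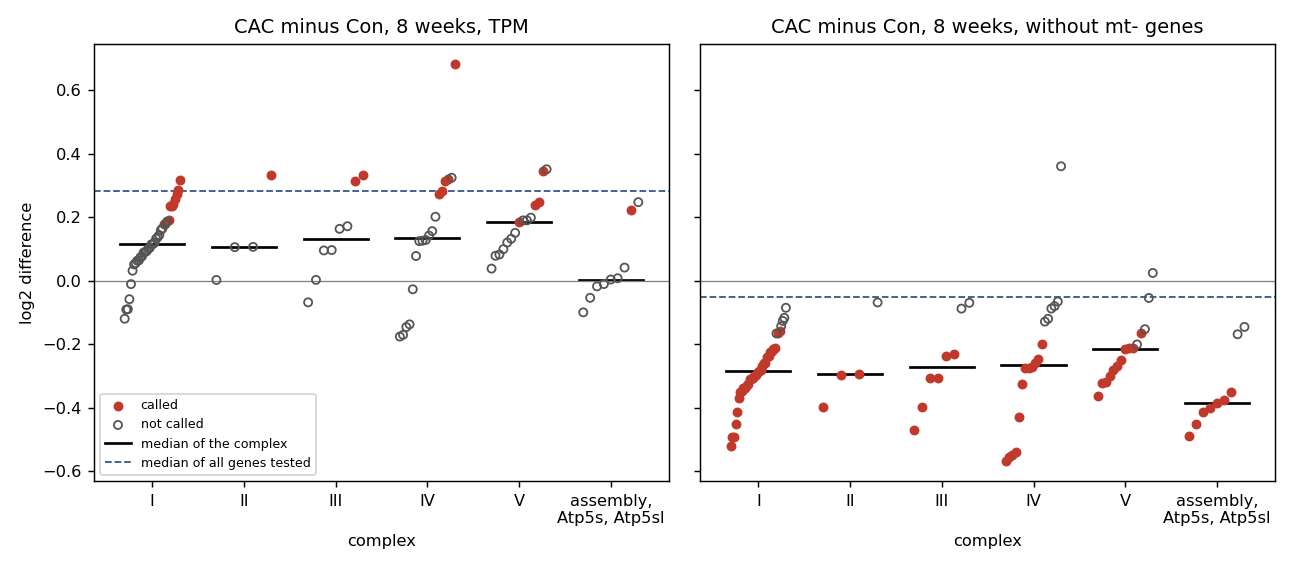
Log2 difference of CAC minus Con at 8 weeks for each of the 90 members tested, by complex, on TPM (left) and on the total without mt- genes (right); filled points are called, open points are not, black lines are the medians of a complex and the dashed line is the median of all genes tested. On TPM most members lie between 0 and the median of all genes (0.28), and on the nuclear scale 88 of 90 lie below the median of all genes (-0.05).

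In complex I, 31 of 36 members fell on the nuclear scale (median -0.29) and 9 rose on TPM (median 0.11). Ndufab1, the acyl carrier protein of complex I, had a lowest value of 111, a median of 126 and a highest of 167 in CAC libraries on the nuclear scale, against 193, 185, 176, 176 and 199 in Con. All 7 CAC libraries lay below all Con libraries. The difference was -0.52 (SE 0.07, adjusted p = 2.18e-07), and on TPM it was -0.12 (adjusted p = 0.211). Ndufc1, a small accessory subunit of the membrane arm, fell by 0.49 (SE 0.09) on the nuclear scale, also without overlap, to 217 ± 39.4 in CAC, against 302 ± 8.06 in Con. At the other end, Ndufa1 and Ndufa2, accessory subunits of the membrane and matrix arms, rose on TPM by 0.28 (SE 0.09) and 0.32 (SE 0.11) and were not called on the nuclear scale, at -0.12 and -0.09. Ndufb9, the most abundant complex I member, averaged 1106 ± 94.3 TPM in CAC and 935 ± 88.8 TPM in Con, rose by 0.24 on TPM and fell by 0.16 on the nuclear scale. The core subunit Ndufv1, which takes electrons from NADH, was among the 9 that rose on TPM, by 0.19.

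In complex II, 3 of 4 members fell on the nuclear scale and 1 rose on TPM. Sdha (chromosome 13), the flavoprotein that oxidizes succinate, had a lowest value of 1015, a median of 1086 and a highest of 1539 TPM in CAC, against 886, 1025, 892, 851 and 925 TPM in Con. CAC replicate 5 was the highest, and the lowest CAC library lay below the highest Con library. Sdha rose by 0.33 (SE 0.08, adjusted p = 4.40e-04) on TPM, and its nuclear-scale difference was -0.07 (SE 0.07, adjusted p = 0.533). Sdhb, the iron-sulfur subunit, and the membrane anchors Sdhc and Sdhd fell on the nuclear scale by 0.30, 0.40 and 0.29, and were not called on TPM. Sdhc had a lowest value of 351, a median of 406 and a highest of 535 in CAC on the nuclear scale, against 539.9, 555, 554, 552 and 552 in Con, without overlap (SE 0.06, adjusted p = 2.51e-06).

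In complex III, 6 of 8 members fell on the nuclear scale and 2 rose on TPM. Uqcrfs1, the Rieske iron-sulfur protein, had a lowest value of 1202, a median of 1463 and a highest of 1782 in CAC on the nuclear scale, against 1992, 2066, 2029, 1902 and 2139.7 in Con. No CAC library overlapped with Con, and the difference was -0.47 (SE 0.07, adjusted p = 9.93e-07). Uqcrc1, a core protein of the matrix side, fell by 0.40 (SE 0.07). The small subunits Uqcr10 and Uqcrq rose on TPM by 0.33 (SE 0.10) and 0.31 (SE 0.12), and their nuclear-scale differences were -0.07 and -0.09, neither called.

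Complex IV held both ends of the list on TPM, and 12 of its 18 tested members fell on the nuclear scale while 5 rose on TPM. The low end was held by Ndufa4l2, a hypoxia-induced relative of Ndufa4, and Cox4i2, the alternative form of subunit 4 that is known as oxygen-responsive, with TPM differences of -0.18 (SE 0.12) and -0.17 (SE 0.13), neither called. On the nuclear scale Ndufa4l2 had a lowest value of 11, a median of 11.8 and a highest of 19 in CAC, against 18.6, 21, 23.2, 17.7 and 21.1 in Con, and differed by -0.57 (SE 0.11, adjusted p = 1.26e-04). Cox4i2 had a lowest value of 6.66, a median of 8.81 and a highest of 12.3 in CAC on that scale, against 10.6, 14.7, 14, 11.8 and 15.9 in Con, and differed by -0.56 (SE 0.13, adjusted p = 0.00104). CAC replicate 5 reached into the Con range for Ndufa4l2, CAC replicates 3 and 6 did so for Cox4i2, and the other CAC libraries lay below it. Cox7a1 (chr7:30184144-30186078, plus strand, mm10), the form of subunit 7a found in heart, muscle and brown fat, had a lowest value of 1092, a median of 1582 and a highest of 2247 in CAC on the nuclear scale, against 2164, 2427, 2425, 2196 and 2564 in Con. CAC replicate 3 reached into the Con range and the other 6 lay below it, and the difference was -0.55 (SE 0.11, adjusted p = 1.46e-04). Cox8b had a lowest value of 2726, a median of 4287 and a highest of 5244 in CAC on the nuclear scale, against 5923, 6441, 5477, 5372 and 6504 in Con, without overlap, and differed by -0.54 (SE 0.13, adjusted p = 0.00104). On TPM the differences of Cox7a1 and Cox8b were -0.15 and -0.14, neither called.

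Cox6b2, known as the testis form of subunit 6b, had the highest TPM difference among the called members. It had a lowest value of 6.9, a median of 8.53 and a highest of 11.5 TPM in CAC, against 4.39, 5.5, 5.42, 6.34 and 4.62 TPM in Con. The groups did not overlap, and the difference was 0.68 (SE 0.18, adjusted p = 0.00135), whereas the nuclear-scale value of 0.36 (adjusted p = 0.152) was not called. The ubiquitous forms Cox4i1 and Cox7a2 rose on TPM by 0.28 and 0.32, with nuclear-scale values of -0.12 and -0.08. Cox6a1, Cox6b1 and Cox8a, also ubiquitous, were not called on TPM and fell on the nuclear scale by 0.25, 0.26 and 0.32. Cox7a2l, a factor that joins complexes III and IV into supercomplexes, rose on TPM by 0.31 (adjusted p = 2.29e-04).

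In complex V, 11 of 15 members fell on the nuclear scale and 4 rose on TPM, and its nuclear-scale median of -0.21 was the least negative of the complexes, which had medians of -0.29 (I), -0.30 (II), -0.27 (III) and -0.27 (IV). Atp5c1, the gamma subunit of the central stalk, had a lowest value of 379, a median of 440.4 and a highest of 513 TPM in CAC, against 326, 374, 321, 372 and 344 TPM in Con. All 7 CAC libraries lay above all Con libraries, with a difference of 0.35 (SE 0.07, adjusted p = 5.04e-05), and the nuclear-scale value was -0.05 (adjusted p = 0.501). Atp5b averaged 2057 ± 128 TPM in CAC and 1743 ± 103 TPM in Con (SD, n = 7 and 5), rose by 0.24 on TPM and fell by 0.16 on the nuclear scale. Atp5e and Atp5j2, the epsilon subunit of the stalk and the f subunit of the membrane part, fell on the nuclear scale by 0.36 and 0.32 and were not called on TPM.

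Of the 9 assembly factors and coupling factor B genes, 7 fell on the nuclear scale with a median of -0.39, and their summed nuclear-scale level in CAC lay below all NCAC and Con libraries. Ndufaf7, a methyltransferase of complex I assembly, had a lowest value of 38.9, a median of 51.3 and a highest of 54.6 in CAC on the nuclear scale, against 77.2, 71.6, 59.9, 72.9 and 58.8 in NCAC and 68.2, 69.6, 67.5, 66.3 and 64.2 in Con. Neither NCAC nor Con overlapped with CAC, and the difference from Con was -0.45 (SE 0.08, adjusted p = 1.37e-05). Ndufaf6 fell by 0.49 (SE 0.10). Ndufaf2 rose on TPM by 0.22 (adjusted p = 0.0469), and Ndufaf1, the most abundant of the group, was called on neither scale, at 0.25 on TPM and -0.15 on the nuclear scale.

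Against the non-cachectic tumour at 8 weeks, which shares its CAC libraries with the comparison above, 67 of 90 members fell and none rose on the nuclear scale, against 10.6% of all genes called higher and 14% lower. On TPM, 6 rose and 2 fell, against 37.3% of all genes called higher and 1.98% lower, and median-of-ratios rescaling gave 43 lower (11.5% of all genes). Relative to the median of all genes, the members' median was -0.18 on TPM and -0.23 on the nuclear scale. By complex, the nuclear-scale calls were 32 of 36 in complex I, 3 of 4 in II, 6 of 8 in III, 11 of 18 in IV, 10 of 15 in V and 5 of 9 in the assembly group. A fit of CAC and NCAC at 8 weeks alone called 16 lower on the nuclear scale, and the fits without any 1 library called between 55 and 75. No share of all genes is given for these fits, so whether 16 exceeds it cannot be told. The TPM count of 8 was 4 without NCAC replicate 1.

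Sdha had 916, 992, 879, 883 and 940.0 TPM in NCAC, all below the lowest CAC library, and rose by 0.32 (SE 0.08, adjusted p = 0.00111) on TPM against a nuclear-scale value of 0.03. Those that rose on TPM also included Atp5c1 by 0.22, Cox6b2 by 0.53, Cox7a2l by 0.20 and Atp5b by 0.22. Ndufab1 and Cox4i2 fell on TPM by 0.21 and 0.32, and on the nuclear scale by 0.50 and 0.62. The nuclear-scale values of Cox7a1, Cox8b, Sdhc, Uqcrfs1 and Ndufc1 were -0.44, -0.47, -0.31, -0.37 and -0.44, all called.

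Between the non-cachectic tumour and mock, limma called no member at any week on either scale or after median-of-ratios rescaling. An unadjusted p under 0.05 was reached by 4, 65, 6 and 6 of 90 members at 2, 4, 6 and 8 weeks on TPM and by 9, 12, 0 and 0 on the nuclear scale. The 65 at 4 weeks involve the Con libraries that stood apart, and the members' median there was -0.24 on TPM, against -0.14 for all genes. Without Con replicate 2 or 5 of that week 35 and 20 members were called on TPM, and 1 was called on the nuclear scale without Con replicate 2. With all libraries in the fit, called shares over all genes were at most 0.00795% on TPM and 0.0159% on the nuclear scale in these 4 comparisons. For the fits without a library no such share is given, so their counts cannot be read against these values. At 8 weeks the members' median on the nuclear scale was -0.01.

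In CAC against Con at 6 weeks fewer members were called than at 8 weeks. On TPM 17 rose and 1 fell, against 20.7% of all genes called higher and 0.978% lower, and the members' median of 0.18 equalled that of all genes within 0.01. Nuclear-scale calls were 9 that fell and none that rose, against 3.64% of all genes called higher and 6.81% lower. Those 9 were Cox4i2, Ndufa4l2, Ndufs6, Ndufaf2, Sdhb, Ndufaf7, Sdhc, Ndufa10 and Ndufa9. Against NCAC at 6 weeks 7 fell on the nuclear scale (4.42% of all genes called higher, 8.01% lower) and 1, Cox4i2, on TPM (5.82% higher, 1.95% lower). The TPM count against Con was moved most by single Con libraries and was 3 without Con replicate 1 and 2 without Con replicate 5. Without CAC replicate 1 it was 6, and without CAC replicate 2 it was 8. The nuclear-scale count against Con was 5 without CAC replicate 1. Against NCAC the TPM count was 0 without CAC replicate 1, 2 or 4 and 12 without NCAC replicate 4, and the nuclear-scale count was 3 without CAC replicate 1 and 4 without NCAC replicate 3. Of 9 macrophage markers, 6 rose on TPM and 5 on the nuclear scale against Con at 6 weeks, with summed levels of 342 to 413 TPM in CAC, 134 to 422 in NCAC and 116 to 384 in Con, and their part in the result was not tested.

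Cox4i2 had 3.72, 4.26, 4.92, 3.7 and 5.87 TPM in CAC at 6 weeks, 6.62, 6.7, 5.53, 8.97 and 5.24 TPM in NCAC and 5.14, 7.27, 5.77, 6.51 and 6.45 TPM in Con. CAC replicate 5 reached into the range of both other groups and the other 4 CAC libraries lay below them. It fell by 0.40 (SE 0.14, adjusted p = 0.0307) against Con on TPM and by 0.72 (adjusted p = 3.39e-04) on the nuclear scale. Ndufa4l2 had 12.7, 12.1, 14.2, 14.2 and 15.2 in CAC on the nuclear scale, 16.8, 21.1, 19.7, 21.6 and 19.2 in NCAC and 18.8, 21.6, 16.7, 21.3 and 23.3 in Con, and all CAC libraries lay below all others. It differed by -0.53 (SE 0.12, adjusted p = 0.00214) from Con and by -0.49 (adjusted p = 0.0046) from NCAC on that scale, and its TPM differences were -0.23 and -0.33, not called.

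In CAC against Con at 4 weeks, 33 members fell on TPM and none rose, against 0.819% of all genes called higher and 3.03% lower, and 16 fell on the nuclear scale, against 4.51% higher and 1.63% lower. Without Con replicates 3 and 4 no member was called on either scale, and 1 was called on TPM without replicate 3 alone. Without Con replicate 4 none was called on TPM, without Con replicate 2 the TPM count was 56, and without CAC replicates 1, 2 or 4 it was 18, 1 and 18. The nuclear-scale count was 3 without CAC replicate 2, 8 without CAC replicate 4 and 9 without Con replicate 3. The members with the smallest adjusted p on the nuclear scale were Ndufb2 at -0.55, Cox5b at -0.47 and Cox8a at -0.50. Against NCAC no member was called at 4 weeks on either scale (unadjusted p under 0.05 in 1 member on TPM and 10 on the nuclear scale), against 0.588% and 1.05% of all genes called in either direction. The nuclear-scale count was 1 without CAC replicate 4. Of the macrophage markers, 1 of 9 rose on TPM and 4 on the nuclear scale against Con at 4 weeks, with sums of 182 to 348 TPM in CAC, 109 to 223 in NCAC and 111 to 284 in Con.

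In CAC against Con at 2 weeks, Cox6a2 and Atp5g1 rose on both scales (described below) and were the only calls on TPM, against 4.58% of all genes called higher and 0.0477% lower. A further 6 members fell on the nuclear scale, against 5.04% of all genes called higher and 0.366% lower, among them Ndufv1 by 0.27, Uqcrc1 by 0.23, Ndufs1 by 0.23, Ndufa9 by 0.21 and Sdhb by 0.20. Among the macrophage markers 7 of 9 rose on TPM and 8 on the nuclear scale in this comparison, with sums of 171 to 259 TPM in CAC, 91.9 to 225 in NCAC and 91.1 to 131 in Con, as did 2 of 6 fibroblast markers on both scales, and their part in the result was not tested. All nuclear-scale calls at 2 weeks were lost without CAC replicate 1 or 2 or without Con replicate 1. The nuclear-scale count was 2 without CAC replicate 4, 3 without Con replicate 2 or 3, 4 without CAC replicate 3 or Con replicate 4 or 5, and 15 without CAC replicate 5. On TPM neither gene was called without CAC replicate 1, 2 or 4 or Con replicate 1 or 5. Against NCAC at 2 weeks none was called on either scale (unadjusted p under 0.05 in 1 member on TPM and 7 on the nuclear scale), against 0.0397% and 0.0318% of all genes.

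Separation of the CAC and Con libraries ordered the weeks otherwise than the calls did. On the nuclear scale, 18, 8, 16 and 15 of 92 members lay below Con without overlap at 2, 4, 6 and 8 weeks, against 1.44%, 1.01%, 5.94% and 5.65% of all genes. On TPM, 1, 0, 28 and 4 lay above Con (8.06%, 0.906%, 15.2% and 14.6% of all genes) and 6, 6, 0 and 0 below it (0.596%, 1.01%, 0.66% and 0.429%). The 8-week count sets 7 CAC libraries against 5, the others 5 against 5.

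The members' nuclear-scale median for CAC minus Con, relative to all genes, was -0.16, -0.19, -0.04 and -0.23 in the order of the weeks 2, 4, 6 and 8. For CAC minus NCAC it was -0.12, -0.10, -0.03 and -0.23 at those weeks. The change of the CAC minus Con difference between 2 and 8 weeks was tested directly. On TPM it was positive in 6 members and negative in none, against 10.2% of all genes called positive and 1.42% negative, and on the nuclear scale it was negative in 9 and positive in none, against 2.11% positive and 6.63% negative. Sdha had the smallest adjusted p on TPM, with a change of 0.51 (SE 0.11, adjusted p = 0.00317), and Atp5j, the F6 coupling factor of ATP synthase, on the nuclear scale, with -0.54 (SE 0.12, adjusted p = 0.00248). The other 8 on the nuclear scale were Ndufaf5, Ndufab1, Ndufb2, Ndufc1, Uqcrfs1, Cox4i2, Ndufa4l2 and Atp5g3. The TPM count was 15 without Con replicate 2 of week 8, and the nuclear-scale count was 18 without CAC replicate 3 of week 8. After median-of-ratios rescaling 1 member was called for this change, against 7.02% of all genes, and with the replicate number as a block the nuclear-scale count was 4.

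**Figure D3:**
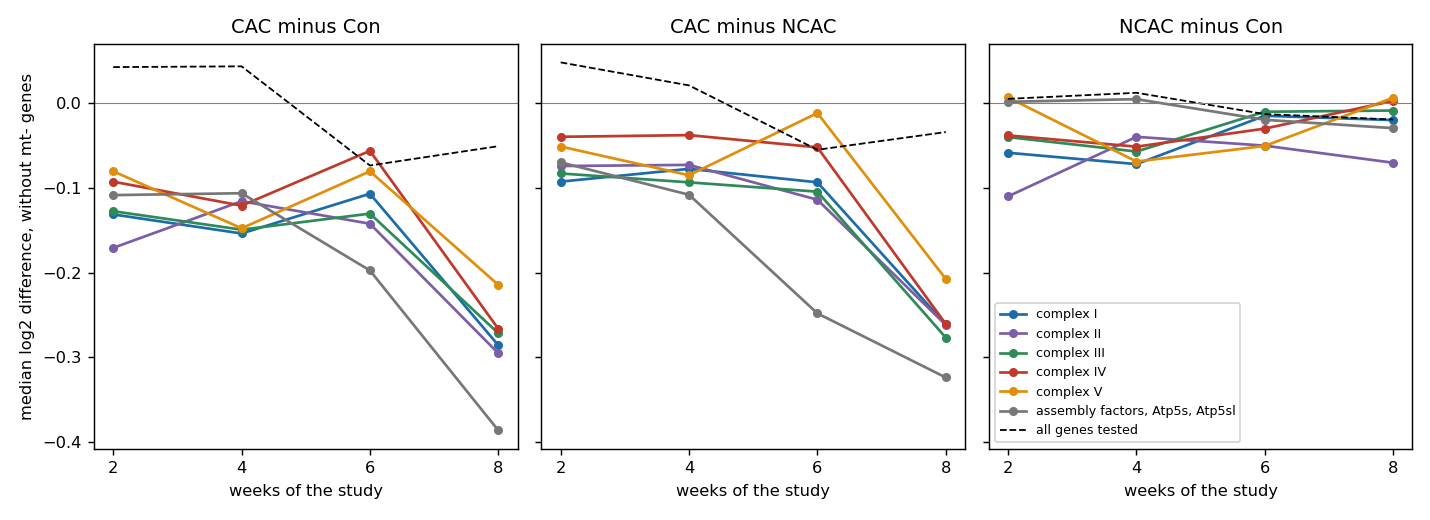
Median log2 difference on the nuclear scale (without mt- genes) of the members of each complex by week, for CAC minus Con, CAC minus NCAC and NCAC minus Con; the dashed line is the median of all genes tested. At 8 weeks the CAC minus Con medians of complexes I to V lie between -0.30 and -0.21 and that of all genes at -0.05, and the median of all members for NCAC minus Con at -0.01.

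Ratios between alternative forms of a complex IV subunit do not depend on the library total. They were taken as log2 ratios of TPM with 0.1 added, for 6 pairs, and compared with 2-sided exact permutation tests over libraries at each week, for CAC against Con and against NCAC, 48 tests in all. After adjustment over the 48 tests none passed 0.05, and the smallest adjusted p was 0.0544. The smallest p the design allows is 0.00794 for 5 against 5 libraries and 0.00126 for 7 against 5.

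The comparisons with Con and with NCAC share the CAC libraries. The log2 ratio of Cox7a1 to Cox7a2, the tissue-restricted over the ubiquitous form of subunit 7a, was 0.13 ± 0.21 in CAC at 8 weeks, 0.44 ± 0.10 in NCAC and 0.60 ± 0.08 in Con (SD, n = 7, 5 and 5). It ranged from -0.21 to 0.49 in CAC and from 0.50 to 0.71 in Con, without overlap. The difference was -0.47 from Con (exact permutation p = 0.00379, adjusted p = 0.0544) and -0.31 from NCAC (exact permutation p = 0.0114, adjusted p = 0.0635). For Cox8b over Cox8a at 8 weeks it was -0.22 from Con (exact permutation p = 0.072, adjusted p = 0.173), with overlap. The Cox6b2 over Cox6b1 ratio was -7.49 ± 0.21 in CAC at 8 weeks, -8.07 ± 0.44 in NCAC and -8.12 ± 0.19 in Con, a difference of 0.63 from Con (exact permutation p = 0.00126, adjusted p = 0.0544) and 0.58 from NCAC (exact permutation p = 0.0139, adjusted p = 0.0635). At 6 weeks the difference of this ratio had the opposite sign, at -0.41 from Con (exact permutation p = 0.0635, adjusted p = 0.169) and -0.38 from NCAC (exact permutation p = 0.0952, adjusted p = 0.218), and at 2 weeks the values were -0.15 and -0.23.

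At 6 weeks the Cox4i2 over Cox4i1 ratio was -8.18 ± 0.31 in CAC, -7.53 ± 0.10 in NCAC and -7.45 ± 0.16 in Con (SD, n = 5 each), with no overlap between CAC and either group. The differences were -0.73 from Con and -0.65 from NCAC (exact permutation p = 0.00794, adjusted p = 0.0544, for each). The Ndufa4l2 over Ndufa4 ratio differed at 6 weeks by -0.51 from Con and -0.51 from NCAC, again without overlap (exact permutation p = 0.00794, adjusted p = 0.0544, for each). At 2 weeks the Cox4i2 ratio was higher in CAC than in Con by 0.24 (exact permutation p = 0.00794, adjusted p = 0.0544), and at 8 weeks lower by a difference of -0.49 (exact permutation p = 0.0152, adjusted p = 0.0635).

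**Figure D4:**
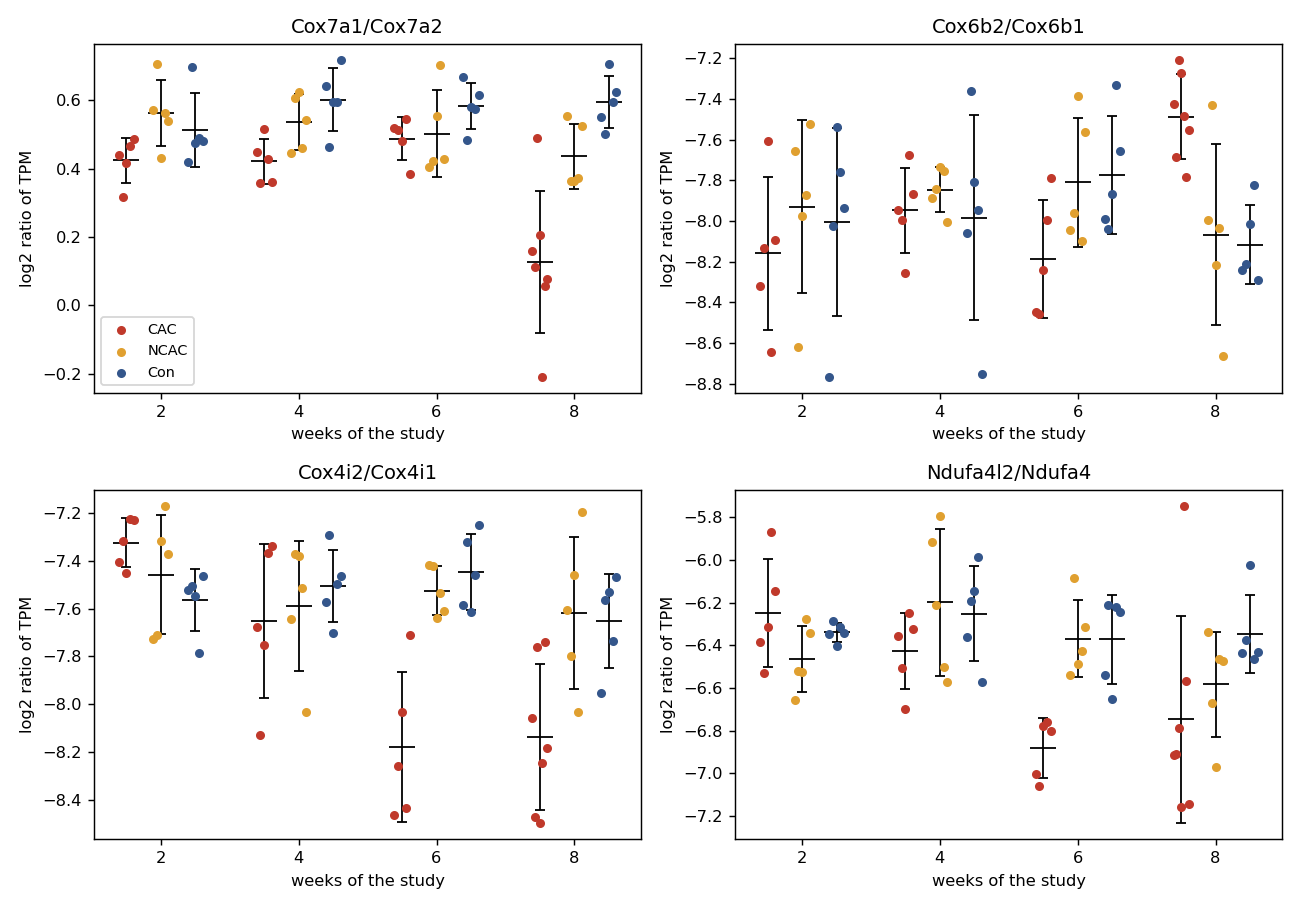
Log2 ratio of TPM between paired forms of 4 complex IV subunits in each library, by weeks after injection, with CAC, NCAC and Con from left to right. Points are libraries and bars the mean and SD. The Cox7a1 over Cox7a2 ratio at 8 weeks averaged 0.13 in CAC, 0.44 in NCAC and 0.60 in Con, and the Cox4i2 over Cox4i1 ratio at 6 weeks -8.18, -7.53 and -7.45 in these groups.

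Cox6a2, the heart and skeletal muscle form of subunit 6a, and Atp5g1, 1 of the genes for the c subunit of ATP synthase, varied widely between libraries. At 2 weeks Cox6a2 had 180.3, 113, 73, 89.3 and 22 TPM in CAC, 31.9, 11.2, 49.6, 74 and 64.7 TPM in NCAC and 0.932, 11.4, 6.6, 34.2 and 5.85 TPM in Con. Atp5g1 had 22.1, 10.8, 7.54, 9.82 and 3.85 TPM in CAC and 1.6, 2.75, 2.38, 4.32 and 2.27 TPM in Con. In both genes only the lowest CAC library overlapped with Con, and they rose by 3.23 (SE 0.87, adjusted p = 0.0246) and 1.55 (SE 0.41, adjusted p = 0.0231) on TPM. In the same comparison 19 of 20 skeletal muscle markers rose, with summed levels of 1650.5 to 18169 TPM in CAC, 1552 to 5233 in NCAC and 144 to 3028 in Con, none of them at 0 in any library. The part of muscle RNA in the result was not tested. At 8 weeks, when none of the 20 muscle markers was called on either scale, Cox6a2 and Atp5g1 were not called, at 0.32 (SE 0.80) and 0.35 (SE 0.38) on TPM. Atp5g2 and Atp5g3, which encode the same mature c subunit, had 2-week TPM differences of 0.03 and 0.39, not called.

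**Figure D5:**
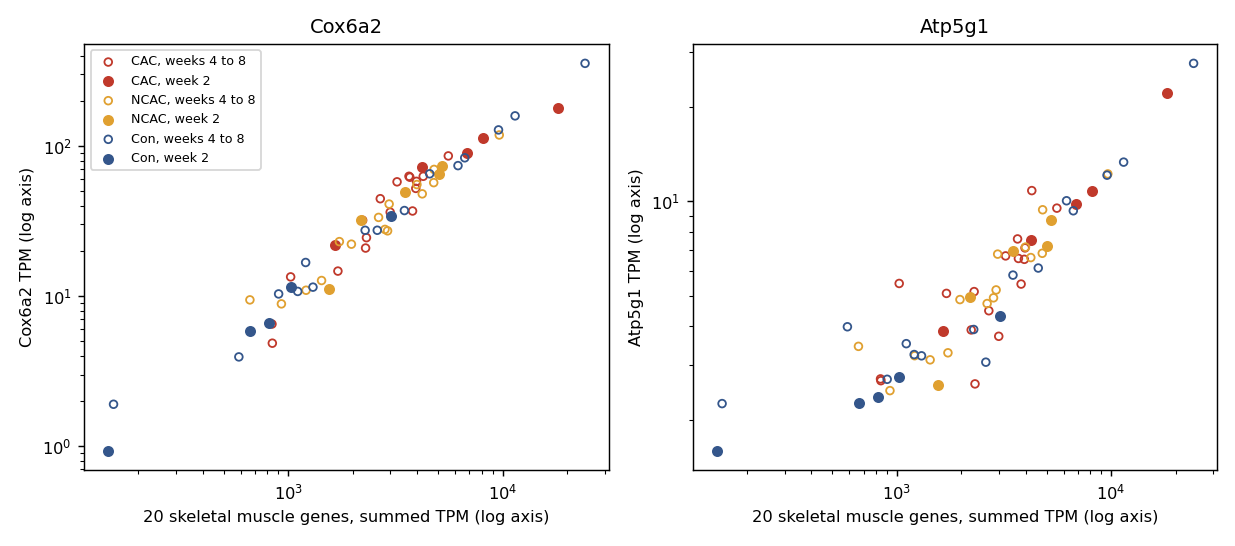
TPM of Cox6a2 (left) and Atp5g1 (right) in each of the 62 libraries against the summed TPM of 20 skeletal muscle markers, both on log axes; filled points are libraries of week 2. Libraries with higher muscle sums have higher levels of both genes, and the CAC libraries of week 2 (muscle sums of 1650.5 to 18169 TPM) lie to the right of most Con libraries of week 2 (144 to 3028 TPM).

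Other genes of the pathway were followed as lists, to be read against the shares of all genes called for CAC against Con at 8 weeks, 52.1% higher and 1.97% lower on TPM and 10.4% higher and 16.9% lower on the nuclear scale. Of 13 mt-encoded subunits, 9 fell on TPM for CAC against Con at 8 weeks and none rose, with a median of -0.32. Of 41 tested assembly factors outside the rule, 29 fell on the nuclear scale and none rose (median -0.31), while 7 rose and 1 fell on TPM, fewer higher calls than the share of all genes. Tmem70, which assembles ATP synthase, differed by -0.60 (SE 0.09) on the nuclear scale, Sdhaf2, which attaches flavin to SDHA, by -0.49 (SE 0.07), and Ecsit, of complex I assembly, by -0.42 (SE 0.06). Cycs, the electron carrier cytochrome c, and Cyc1, the cytochrome c1 of complex III, fell on the nuclear scale, at -0.44 (SE 0.11) and -0.38 (SE 0.07). Of 14 regulators of these genes, 4 fell on the nuclear scale: Tfam, the packaging and transcription factor of mitochondrial DNA, at -0.51 (SE 0.07), Esrrg at -0.63 (SE 0.16), Esrra at -0.29 (SE 0.10) and Polrmt, the mitochondrial RNA polymerase, at -0.29 (SE 0.11). On TPM 4 others rose, Nrf1, Gabpb1, Yy1 and Pprc1, a smaller share than that of all genes.

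Markers of other cell types were counted for CAC against Con at 8 weeks. The shares of all genes there were 52.1% higher and 1.97% lower on TPM, and 10.4% higher and 16.9% lower on the nuclear scale. Of 9 macrophage markers, 9 rose on TPM and 7 on the nuclear scale, with summed levels of 249 to 607 TPM in CAC, 97.8 to 182 in NCAC and 125 to 164 in Con, and none at 0 in any library. Of 5 epithelium markers 5 fell on both scales, with sums of 1.03 to 35.6 TPM in CAC, 19.3 to 116 in NCAC and 15.5 to 111 in Con, and 1 of the 5 was at 0 in a CAC library. The calls among 5 endothelium markers were 3 higher and 1 lower on TPM and 1 in each direction on the nuclear scale, with sums of 142 to 217 TPM in CAC, 113 to 131 in NCAC and 105 to 138 in Con. Of 6 lymphocyte markers 2 were tested, of which 1 fell on TPM and 2 on the nuclear scale, with sums of 5.92 to 18.1 TPM in CAC, 10.4 to 39.9 in NCAC and 20.7 to 64.8 in Con, and 2 of the 6 were at 0 in at least 1 CAC library. Of 6 fibroblast markers 1 rose on TPM and 1 fell on the nuclear scale, neither above the share of all genes called in that direction. Among 12 brown adipocyte markers the TPM calls were 5 higher and 1 lower and the nuclear-scale calls 1 higher and 2 lower, with sums of 18273 to 32038 TPM in CAC, 19068 to 29939 in NCAC and 18606 to 23157 in Con, and these counts lie near the shares of all genes. Unlike the sum, Ucp1 was lower in most CAC libraries, at 1640 to 4659 TPM, against 4037 to 9370 in NCAC and 4424 to 5671 in Con. CAC replicate 1 reached into the Con range for Ucp1, and the other CAC libraries lay below it. The part of these cell types in the members' differences was not tested.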

How the data were processed

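RNA of brown adipose tissue was sequenced after stranded mRNA library preparation, per the labels' protocols, which also mention a lung carcinoma (LLC) model. The authors deposited 1 table of TPM for 62 libraries, and reads were placed on mm10, per the submitters' processing notes. The aligner and counter are not given in the sources used here. Each TPM column sums to 1000000, so depth is unknown, and 10851 to 12347 genes reached 1 TPM per library. The title number 56 occurs in both a CAC and a Con library of week 4.

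Values were tested with limma 3.58.1 in R 4.3.3, with trended empirical Bayes, on log2(TPM + 1) with 12 group means, for the 12581 genes at 1 TPM or more in at least 5 libraries (12568 on the nuclear scale), with Benjamini-Hochberg adjustment within a comparison. The procedure was tested on simulated data. These had independent noise for each gene and neither outlying libraries nor differences in mt- share, so they do not bear on how the calls move with scale or library. Isoform ratios used exact permutation tests (scipy 1.17.1). Nothing in the labels pairs libraries across groups. Alternatives were another pseudocount and filter, no filter, median-of-ratios rescaling, only the groups compared, a replicate block and leaving out each library.

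The members and lists were chosen with earlier results of these data known. Genes described in full were, for each complex, the 2 highest and 2 lowest by the 8-week TPM difference of CAC minus Con, the most abundant member and the isoform pairs, and other members named were chosen after their values were seen. Counts of called members include a gene whose own values are not reported here. Promoter windows and positions are from RefSeq GRCm38.p6 and the mm10 annotation.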

Additional observations from a re-analysis of the deposited data

Results flagged for a closer look

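In 16 of 270 groups of values, 1 library lay far from the others of its group by Dixon's criterion, which chance alone flags in about 1 in 20. The summed members reached 6.01, against 3.65 to 4.13 in the others of its group (percent of TPM), in NCAC replicate 4 at 6 weeks, and 4.46, against 4.13 to 4.2 in the others of its group, in CAC replicate 5 at 2 weeks. Complex IV held 2.74, against 3.19 to 3.34 in the others of its group (percent of the nuclear total), in NCAC replicate 3 at 8 weeks.

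Single genes in TPM at 8 weeks stood apart in CAC replicate 5 for Sdha (1539, against 1015 to 1178 in the others of its group) and Ndufa4 (523, against 695 to 793 in the others of its group). They did so in CAC replicate 3 for Ndufaf6 (13.2, against 7.65 to 9.63 in the others of its group) and in CAC replicate 2 for Cox8a (1425, against 869.7 to 1109 in the others of its group). In NCAC replicate 3 the gene was Cox4i1 (1167, against 1090.2 to 1109.9 in the others of its group). In Con replicate 4 they were Cox6a2 (128, against 10.7 to 27.4 in the others of its group) and Atp5g1 (12.1, against 3.21 to 3.9 in the others of its group), and in Con replicate 2 Atp5b (1923, against 1672 to 1730.1 in the others of its group).

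Among log2 ratios between forms, Ndufa4l2 over Ndufa4 was -5.75, against -7.16 to -6.57 in the others of its group in CAC replicate 5 at 8 weeks and -6.03, against -6.46 to -6.38 in the others of its group in Con replicate 3 at 8 weeks. Cox8b over Cox8a was 1.36, against 1.22 to 1.25 in the others of its group in NCAC replicate 5 at 4 weeks. In Con at 2 weeks, Cox4i2 over Cox4i1 was -7.79, against -7.55 to -7.46 in the others of its group in replicate 4, and Cox7a1 over Cox7a2 was 0.70, against 0.42 to 0.49 in the others of its group in replicate 2.

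The difference of CAC minus Con itself changed between 2 and 8 weeks in 15 tests (limma, adjusted p under 0.05). These were 6 of 90 members tested on TPM and 9 of 90 on the nuclear scale. Of all genes, 11.6% and 8.74% were called for this change on the same scales, so the members were not called more often on TPM. The log2 changes on TPM included Ndufv1 0.39, Sdha 0.51, Cox6b2 0.86, Cox7a2l 0.32 and Atp5b 0.38. On the nuclear scale they were Ndufaf5 -0.43, Ndufab1 -0.37, Ndufb2 -0.48, Ndufc1 -0.42, Uqcrfs1 -0.34, Cox4i2 -0.68, Ndufa4l2 -0.56, Atp5g3 -0.52 and Atp5j -0.54.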

How the results depend on the processing

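Adding 0.1 in place of 1 before the logarithm, a filter at 5 TPM and counting Ndufa4 and Ndufa4l2 with complex I moved no count of called members by more than 1.5 times. Most differences on TPM depended on the scaling. With median-of-ratios rescaling the count of called members was 12 at 2 weeks, 11 at 4, 2 at 6 and 43 at 8 for CAC minus Con, and 3 at 6 and 43 at 8 weeks for CAC minus NCAC, and 1 for the change from 2 to 8 weeks. Of all genes, 4.99%, 5.13%, 8.28% and 26.3% were called in either direction for CAC minus Con at 2, 4, 6 and 8 weeks. For CAC minus NCAC the shares were 10.3% and 24.4% at 6 and 8 weeks, and for the change 7.02%. The members' medians were then -0.18, -0.033 and -0.23 for CAC minus Con at 2, 6 and 8 weeks, -0.13 and -0.23 for CAC minus NCAC at 2 and 8 weeks, and 0.0042 for NCAC minus Con at 8 weeks. With that rescaling the log2 difference at 8 weeks changed sign for CAC minus Con in Ndufaf1 -0.099, Ndufaf2 -0.12, Ndufa1 -0.072, Ndufa2 -0.040, Ndufb9 -0.11, Sdha -0.023, Sdhb -0.25, Sdhc -0.35, Sdhd -0.25, Uqcr10 -0.024, Uqcrc1 -0.35, Uqcrq -0.043, Cox4i1 -0.075, Cox6a1 -0.20, Cox6a2 -0.011, Cox6b1 -0.21, Cox7a2 -0.035, Cox8a -0.28, Ndufa4 -0.15, Atp5b -0.12, Atp5c1 -0.0091, Atp5e -0.32 and Atp5j2 -0.28, and for CAC minus NCAC in Ndufaf2 -0.075, Ndufa1 -0.057, Ndufa2 -0.12, Ndufb9 -0.20, Sdhb -0.22, Sdhd -0.25, Uqcr10 -0.14, Uqcrq -0.071, Cox4i1 -0.12, Cox6a1 -0.19, Cox6b1 -0.24, Cox7a2 -0.10, Cox8a -0.22, Ndufa4 -0.23, Atp5b -0.044, Atp5c1 -0.039 and Atp5g1 -0.083. This rescaling divides out the shift of all genes.

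Without a filter on low values the TPM counts for CAC minus Con were 21 at 4 and 9 at 6 weeks, and the nuclear-scale counts 3 at 2 and 9 at 4 weeks. With only the groups compared in the fit, which leaves fewer samples for the spread, the TPM counts for CAC minus Con were 8, 0 and 28 at 2, 4 and 6 weeks, those for CAC minus NCAC 0 and 3 at 6 and 8 weeks, and 11 for the change from 2 to 8 weeks. The nuclear-scale counts were 14, 0 and 38 for CAC minus Con at 2, 4 and 8 weeks and 4 and 16 for CAC minus NCAC at 6 and 8 weeks. Shares of all genes called are not given for these fits, so the counts cannot be read against them. Without Con replicates 3 and 4 of week 4 both counts for CAC minus Con at 4 weeks were 0. With 1 added in place of 0.1, the Cox6a2 over Cox6a1 difference for CAC minus Con was -0.037 at 4 and -0.0076 at 6 weeks.

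The replicate numbers did not pair the libraries: of 60 pairs of same-numbered libraries, 16 had deviations from their group means that correlated above 0.1 (median -0.03, from -0.39 to 0.48). With the replicate number as a block, which leaves CAC replicates 6 and 7 without partners, the nuclear-scale count for the change from 2 to 8 weeks was 4, the Sdhc difference of CAC minus NCAC on TPM was 0.0042 and the Atp5g1 difference of CAC minus Con on the nuclear scale was -0.086. No other count of called members moved by more than 1.5 times under the block.

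Leaving out each library in turn gave these ranges of called members on TPM: 0 to 2 (CAC minus Con at 2 weeks), 0 to 56 (CAC minus Con at 4 weeks), 2 to 18 (CAC minus Con at 6 weeks), 14 to 27 (CAC minus Con at 8 weeks), 0 to 12 (CAC minus NCAC at 6 weeks), 4 to 10 (CAC minus NCAC at 8 weeks), 0 to 35 (NCAC minus Con at 4 weeks) and 4 to 15 (the change from 2 to 8 weeks). On the nuclear scale they were 0 to 15 (CAC minus Con at 2 weeks), 3 to 23 (CAC minus Con at 4 weeks), 5 to 10 (CAC minus Con at 6 weeks), 0 to 1 (CAC minus NCAC at 4 weeks), 3 to 9 (CAC minus NCAC at 6 weeks), 0 to 1 (NCAC minus Con at 4 weeks) and 6 to 18 (the change from 2 to 8 weeks). Among single genes at 8 weeks whose difference changed sign, the ranges on TPM against Con were Ndufaf7 -0.097 to 0.0033, Sdhc -0.033 to 0.036, Uqcrc1 -0.032 to 0.043, Cox8a -0.00061 to 0.12 and Atp5e -0.0082 to 0.13, and against NCAC Ndufaf1 -0.11 to 0.027, Sdhc -0.057 to 0.012, Sdhd -0.027 to 0.068, Cox6a2 -0.64 to 0.19, Cox6b1 -0.0036 to 0.054, Cox8a -0.041 to 0.077 and Atp5g1 -0.023 to 0.39. On the nuclear scale they were Cox6a2 -0.37 to 0.52 and Atp5g1 -0.11 to 0.35 against Con and Sdha -0.028 to 0.069 and Atp5g1 -0.28 to 0.16 against NCAC. Log2 ratios between forms that changed sign ranged as follows: Cox4i2 over Cox4i1 -0.18 to 0.054 (CAC minus NCAC, week 4), Cox6a2 over Cox6a1 -1.10 to 0.66 (CAC minus Con, week 4), Cox6a2 over Cox6a1 -0.13 to 0.48 (CAC minus NCAC, week 4), Cox6a2 over Cox6a1 -0.82 to 0.59 (CAC minus Con, week 6), Cox6a2 over Cox6a1 -0.13 to 0.78 (CAC minus Con, week 8), Cox6a2 over Cox6a1 -0.77 to 0.11 (CAC minus NCAC, week 8), Cox6b2 over Cox6b1 -0.16 to 0.19 (CAC minus Con, week 4), Cox7a1 over Cox7a2 -0.039 to 0.035 (CAC minus NCAC, week 6) and Ndufa4l2 over Ndufa4 -0.0055 to 0.16 (CAC minus Con, week 2). Unless stated, the cause of a change with a setting was not tested. With TPM only, counting error per library is unknown, so that the spread between libraries is the only measure of precision.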
